A study of Mus musculus with 2 samples.

Results

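The posterior lobe of the pituitary was described here through 10 genes: Avp, Oxt, Nkx2-1, Rax, Scn7a, Col25a1, Vcan, Slc1a3, Gfap and Adm. They were chosen by name, with earlier results of these data known. All 10 were found among the 31784 gene rows of the deposited table. Pituitary RNA of Brdt-/- mice, homozygous for the knockout-first tm1a allele, was set against that of wild-type mice on 2 two-colour Agilent microarrays. In this allele a cassette with a lacZ reporter and a neo selection gene sits in the fourth intron of Brdt and interrupts the gene in every cell type. Both genotypes were on a C57BL/6 background and 8 weeks old, the wild-type mice are labelled male, and the labels used here give no sex for the Brdt-/- mice. Each array was taken to compare a pool of 3 Brdt-/- mice with a pool of 3 wild-type mice, and the dyes were exchanged on array 2. The series text gives another number of pools beside 2 replicates per genotype, so a single pool per genotype and array was assumed. The labels call the pools biological replicates. With that assumption n = 2 for every value below, and a difference between single mice cannot be seen.

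The posterior lobe holds the axon endings of magnocellular neurons, whose cell bodies lie in the hypothalamus and which release vasopressin and oxytocin into the blood. Between the endings lie pituicytes, the resident glia, which carry astrocyte proteins and arise from the floor of the developing brain rather than from the epithelium that forms the anterior lobe. Nkx2-1 and Rax are transcription factors of that neural territory. Adm encodes adrenomedullin, a vasodilator peptide, and the others encode glial, channel and matrix proteins.

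Each deposited value is a linear fold between the channels of an array with a plus or minus sign, and each gene name has 1 row. They are given here as log2 ratios of Brdt-/- over wild type, array 1 before array 2. That direction is an assumption and is not settled, because no source used here states which dye is on top. It rests on reading both columns as Cy5 over Cy3 and turning the sign of array 2, where Brdt-/- RNA carried Cy3. The array's added control RNAs (E1A, 10 rows) kept their sign from column to column in 10 of 10 cases. Columns in 1 dye order would show this, provided that each control mixture was tied to a dye, which no source used here states. If both columns are instead Cy3 over Cy5, every direction below inverts. If they are both Brdt-/- over wild type already, array 2 takes the opposite sign, and the counts for that reading are given beside the main ones. If both are wild type over Brdt-/-, the order in which the sample titles name the genotypes, every direction of that reading inverts. Its counts of higher and lower genes then change places. The turned arrays correlated at -0.26 across gene rows, and the columns as deposited at 0.26. Between arrays, 41.1% of gene rows kept their sign with array 2 turned and 58.7% as deposited. The gene rows thus matched better between arrays as deposited. Columns in 1 dye order would also match in this way if genes had a constant dye effect, so the match cannot settle the direction. Such an effect would cancel in the turned mean and stay in the means and counts as deposited, and it was not tested. The turned direction stays in doubt. The deposited table gives ratios and no intensities, so levels of the posterior lobe markers could not be set against those of other cell types.

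Avp and Oxt encode the vasopressin and oxytocin precursors and define the lobe's hormone output. They are neighbours on chromosome 2 and are read from opposite strands. The 250 bases before each RefSeq start (build GRCm38.p6) are shown because these hormone genes were both higher in Brdt-/- pools on both turned arrays. Capitals mark the E-box CACGTG and the nuclear receptor motif TGACCT or its reverse complement AGGTCA. The Avp stretch is chr2:130582589-130582838 on the minus strand and the Oxt stretch chr2:130575919-130576168 on the plus strand, both written 5′ to 3′ along the gene.
Avp: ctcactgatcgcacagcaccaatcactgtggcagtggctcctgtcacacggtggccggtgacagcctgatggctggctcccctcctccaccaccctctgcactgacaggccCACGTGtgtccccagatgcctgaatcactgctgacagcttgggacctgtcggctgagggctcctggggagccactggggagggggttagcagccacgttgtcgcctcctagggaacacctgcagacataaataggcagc
Oxt: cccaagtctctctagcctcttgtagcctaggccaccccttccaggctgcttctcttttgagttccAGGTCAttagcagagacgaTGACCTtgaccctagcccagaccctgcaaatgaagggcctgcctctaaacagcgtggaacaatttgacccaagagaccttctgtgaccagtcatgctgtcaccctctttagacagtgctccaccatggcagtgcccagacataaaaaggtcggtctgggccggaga

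The Avp E-box lies at bases -139 to -134, counted back from the start, and is known in mice as a site of the clock factors CLOCK and BMAL1. The Oxt stretch holds TGACCT at bases -166 to -161 and AGGTCA at -185 to -180, in a region known in the rat to bind nuclear receptors. The E-box was found in 6.02% of 32851 RefSeq promoters over the same 250 bases, and the nuclear receptor motif on either strand in 14.0%. The cyclic AMP response element TGACGTCA, held by 1.55% of them, was in neither stretch. A match of letters is a description and not evidence of binding. A RefSeq promoter was found for 9 of the 10 genes, and only these 2 are shown. The Gfap promoter also held TGACCT, at bases -85 to -80.

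Both neurohormone transcripts were higher in Brdt-/- pools on both turned arrays. Avp was deposited as a fold of 1.48 on array 1 and -1.33 on array 2, which gave log2 ratios of 0.57 and 0.41. Its mean was 0.49 ± 0.11 (SD, n = 2), or 1.40-fold, and its 95% interval in limma's fit ran from 0.02 to 0.96. The values of Avp lay at the 92.5th and 92.1st percentile of all gene rows on the 2 arrays, so neither array alone carried the difference. Oxt was smaller and lay at 0.14 and 0.27, a mean of 0.21 ± 0.09 (SD, n = 2), with an interval of -0.26 to 0.68. Avp was the single one of the 10 genes whose interval left out 0, and at limma's unadjusted threshold of 0.05 it was the single one that passed, against 2.21% of all gene rows. After Benjamini-Hochberg adjustment over all gene rows, limma called 0 of the 10 genes and 0% of gene rows, with an adjusted p of 0.999995 for each of the 10.

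The transcription factor genes lay on the same side as the hormones, each with most of its difference on 1 array. Nkx2-1, a homeobox gene needed for the posterior lobe to form, had log2 ratios of 0.48 and 0.05, with a mean of 0.26 ± 0.31 (SD, n = 2). Rax, a retina and hypothalamus homeobox gene that adult pituicytes also express, was at 0.10 and 0.50, a mean of 0.30 ± 0.28 (SD, n = 2). Array 1 thus carried Nkx2-1 and array 2 carried Rax, and both intervals held 0 (-0.32 to 0.84 for Nkx2-1 and -0.26 to 0.87 for Rax).

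**Figure D1:**
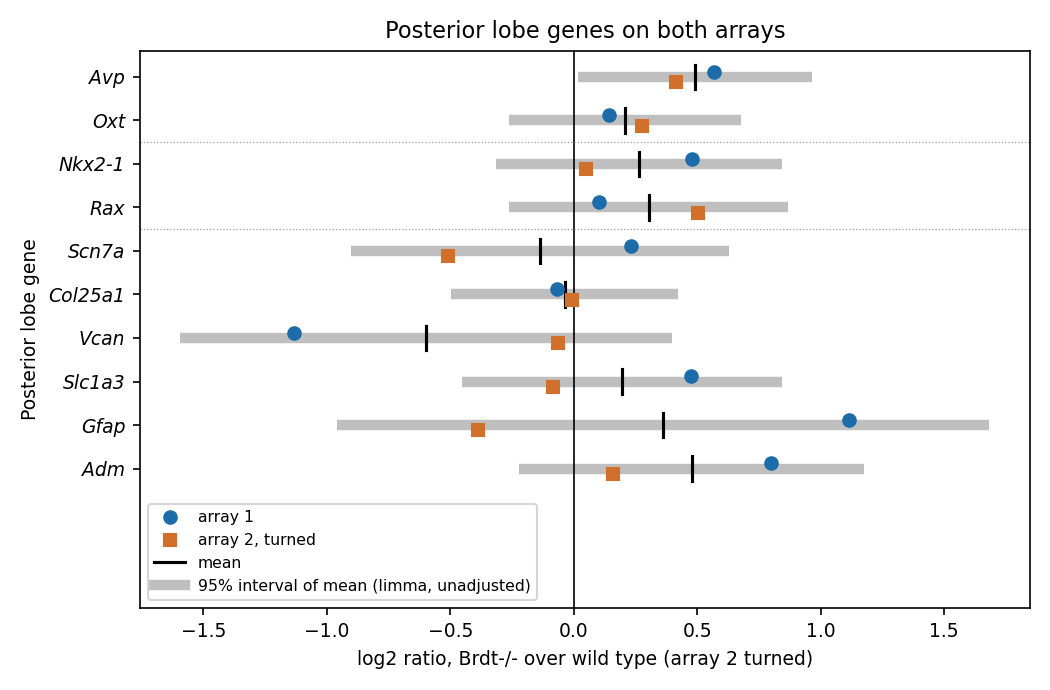
Log2 ratio of Brdt-/- over wild type for each of the 10 posterior lobe genes on array 1 (circles) and turned array 2 (squares), with the mean (black tick) and limma's unadjusted 95% interval of the mean (grey bar); dotted lines part hormones, transcription factors and the other genes. Avp, Oxt, Nkx2-1, Rax and Adm lie right of 0 on both arrays, and Gfap lies at 1.11 on array 1 and -0.39 on turned array 2.

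Glial transcripts did not keep 1 direction. Gfap, the intermediate filament of astrocytes and pituicytes, was 2.16-fold higher in the Brdt-/- pool on array 1, a log2 ratio of 1.11, but lay at -0.39 on array 2. Its SD was 1.06 on the turned arrays, against a median SD of 0.20 over all gene rows, and 0.51 with array 2 as deposited. Slc1a3, the glutamate transporter GLAST, was at 0.47 and -0.08. Scn7a, the sodium-sensing channel of glia in salt-sensing organs, was at 0.23 and -0.51. As deposited, each of these 3 genes had positive values in both columns, in which the genotypes sat in opposite dyes. Read without turning array 2 they averaged 0.75 for Gfap, 0.28 for Slc1a3 and 0.37 for Scn7a. The lowest of limma's adjusted p-values over the 10 genes was then 0.520, for Scn7a, and 0 of the 10 passed the unadjusted threshold, against 10.2% of gene rows.

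The matrix genes lay below 0 on both turned arrays, by little on array 2. Vcan, which encodes the chondroitin sulphate proteoglycan versican, was deposited as a fold of -2.19 on array 1 and 1.04 on array 2, log2 ratios of -1.13 and -0.06. Its mean of -0.60 ± 0.76 (SD, n = 2) therefore rested on array 1, where it lay at the 1.67th percentile of gene rows. Col25a1, a membrane-bound collagen, stayed nearest to 0 of the 10 genes, at -0.07 and -0.01, with an interval of the mean from -0.50 to 0.42. Adm was higher on both turned arrays but unevenly, at 0.80 and 0.16, a mean of 0.48 ± 0.45 (SD, n = 2). Its interval ran from -0.22 to 1.18.

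Of the 10 genes, 5 were higher and 2 lower on both turned arrays, against 21.6% and 19.5% of all gene rows. The 5 higher genes were Avp, Oxt, Nkx2-1, Rax and Adm, and the 2 lower ones were Vcan and Col25a1. With array 2 left as deposited, 3 were higher (Scn7a, Slc1a3 and Gfap) and 0 lower on both, against 23.3% and 35.4% of gene rows, so that 3 genes kept their sign between arrays where 58.7% of gene rows did. Oxt and Rax then turned to means of -0.07 and -0.20, while Avp averaged 0.08, so the orientation of array 2 decides which of the genes share a sign. None of the 10 genes passed 1.5-fold on both turned arrays in 1 direction, against 0.812% of gene rows, and none did with array 2 as deposited, against 3.17%. At 1.2-fold 1 gene passed on both turned arrays, Avp, against 5.34%. At 1.5-fold, 3 genes passed on array 1 alone (Vcan, Gfap and Adm), against 13.8% of gene rows, and 0 on array 2 alone, against 9.19%. By mean over the turned arrays, the order from highest to lowest was Avp, Adm, Gfap, Rax, Nkx2-1, Oxt, Slc1a3, Col25a1, Scn7a and Vcan. With array 2 as deposited it was Gfap, Scn7a, Adm, Slc1a3, Nkx2-1, Avp, Col25a1, Oxt, Rax and Vcan. On the turned arrays every interval of the 10 means held the range from 0.02 to 0.40. Each interval is set against 0 and no gene was tested against another, so the order is a description only. In whole-pituitary RNA, fewer cells of a type and less RNA per cell cannot be told apart.

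**Figure D2:**
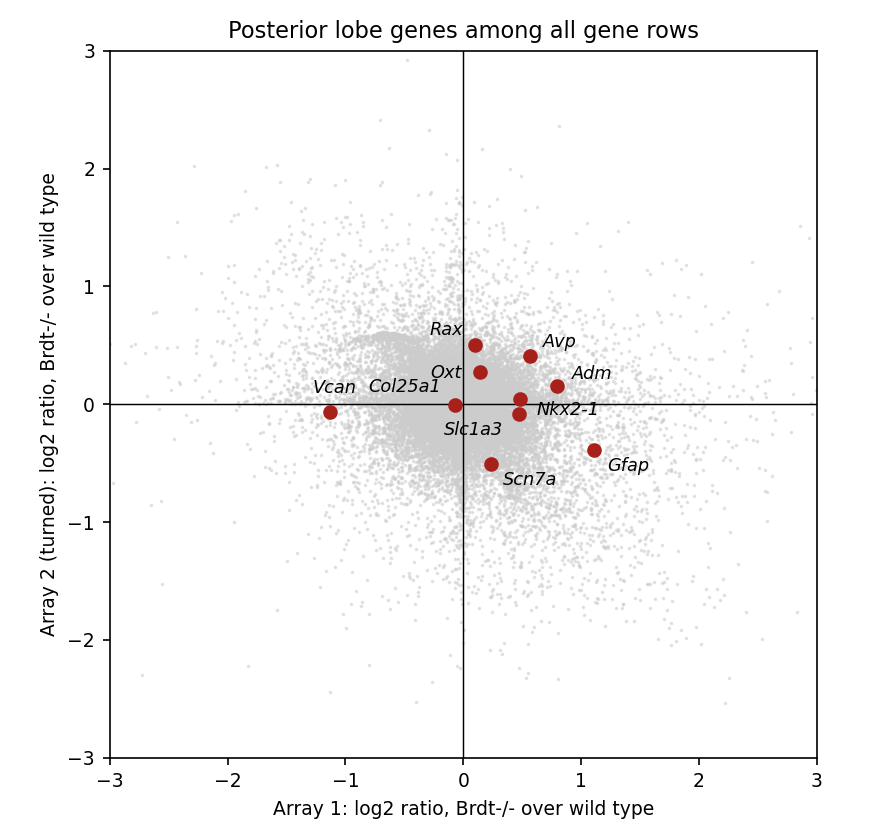
Each gene row's log2 ratio of Brdt-/- over wild type on array 1 (horizontal) and turned array 2 (vertical), all gene rows in grey and the 10 posterior lobe genes in red; 40 gene rows lie outside the axes. Avp is the red point past 1.2-fold on both turned arrays in 1 direction, and Gfap and Vcan stand far from 0 along array 1 alone.

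Like Gfap, the wider set of glial genes lay higher on array 1 than on turned array 2. This list was chosen with earlier results of these data known, so its counts are a description and not a test of the Gfap pattern. Of 15 further pituicyte, astrocyte and neuroectoderm genes, all 15 lay above 0 on array 1, where 44.9% of gene rows did, with a median of 0.40. On turned array 2, 7 of the 15 did, against 57.1% of gene rows, with a median of -0.05. The medians over all gene rows were -0.03 on array 1 and 0.03 on turned array 2. Higher on both turned arrays were 7 genes and lower on both 0, against 21.6% and 19.5% of all gene rows. Fabp7, a fatty acid binding protein of radial glia, was at 0.86 and 0.26, and Gja1, the gap junction protein connexin 43, at 0.58 and 0.31. Hes1, a target of Notch, was nearly equal on both, at 0.44 and 0.40. Across the 12 lists set beside the 10 genes, limma called 0 of 100 genes at the adjusted threshold, and 4 passed at the unadjusted one (Lnpep, Olig1, Has1 and Pomc), beside the 2.21% of all gene rows that did. None of these 4 passed the unadjusted threshold with array 2 as deposited. In that reading the listed genes that passed were Prl, Nos1, Elavl4, Car9, Gh, Bnip3, Olig2, S100b, Cartpt, Vegfa and Avpr1b. Of all gene rows, 10.2% passed the unadjusted threshold then and 0% the adjusted one. With array 2 as deposited, 8 of the 15 glial genes were higher on both arrays and 0 lower, against 23.3% and 35.4% of gene rows.

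Several other marker lists also had higher medians on array 1 than on turned array 2. Of 8 measured neuron and axon genes, 6 lay above 0 on array 1 and 3 on turned array 2, with medians of 0.43 and -0.12. On both arrays 2 were higher and 1 lower, and 4 and 1 with array 2 as deposited. Over all gene rows the shares higher and lower on both were 21.6% and 19.5%, and 23.3% and 35.4% as deposited. Nefl, a neurofilament subunit, was at 0.73 and 0.09, Nefm at 0.19 and 0.31, and Gap43, a growth cone protein, at 0.69 and -0.06. The 7 anterior lobe stem and folliculostellate genes had medians of 0.18 and 0.07, with Sox2, Sox9 and Aldh1a2 at 0.45 and 0.13, 0.47 and 0.07, and 0.44 and 0.09. Of these 7, 3 were higher and 2 lower on both turned arrays, and 1 and 1 with array 2 as deposited. The 9 anterior and intermediate lobe genes had medians of 0.29 and -0.10, and the 6 endothelial genes -0.02 and 0.03. Higher and lower on both turned arrays were 2 and 1 of the anterior and intermediate lobe genes and 2 and 2 of the endothelial genes, against 4 and 2 and 1 and 1 with array 2 as deposited. Oligodendrocyte genes had medians of 0.25 and -0.19 over 6 genes, with 1 higher and 1 lower on both turned arrays, and 3 and 1 with array 2 as deposited. One of them, Olig1, a transcription factor of that lineage, was at 0.73 and 0.90, past 1.5-fold on both turned arrays, while Mog and Mbp, which encode myelin proteins, were at -0.32 and -0.14 and at 0.23 and -0.49. The part of these cell types in the values of the 10 genes was not tested.

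**Figure D3:**
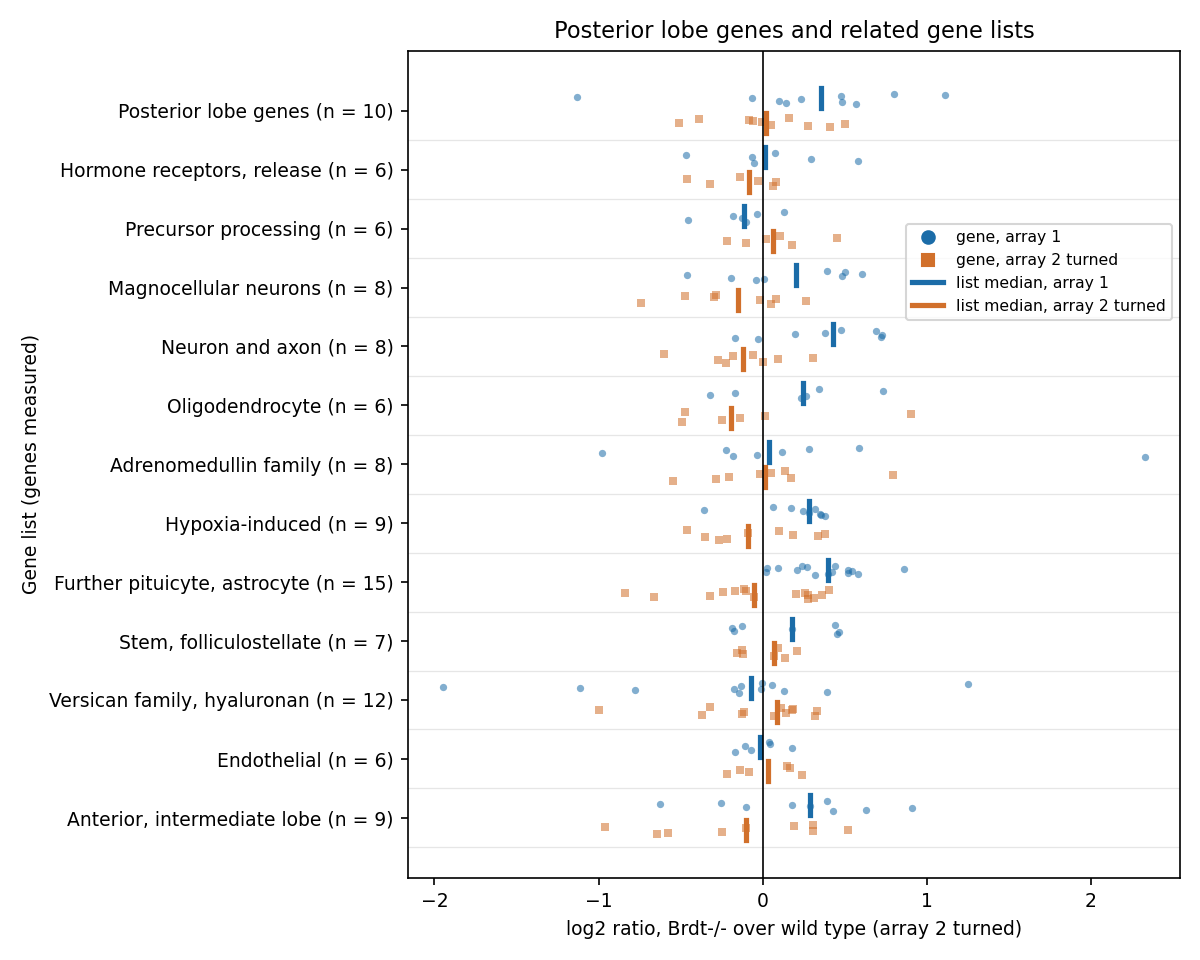
Log2 ratio of Brdt-/- over wild type of each gene in the posterior lobe set and 12 related lists, on array 1 (blue circles) and turned array 2 (orange squares), with the list medians as vertical ticks. The glial list lies wholly right of 0 on array 1 with a median of 0.40 and spreads over both sides on array 2 with a median of -0.05.

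Genes that serve the neurohormones in other ways had no common direction. Of 8 genes for magnocellular neuron factors and co-transmitters, 0 had the same sign on both turned arrays, against 41.1% of gene rows. With array 2 as deposited, 8 of the 8 did, against 58.7% of gene rows, 5 of them higher and 3 lower. The medians on the turned arrays were 0.20 and -0.15. Cell bodies of these neurons lie in the hypothalamus, and no intensities show whether these transcripts stood above background in pituitary RNA. Otp, a homeobox gene of these neurons, was at 0.01 and -0.74, Arnt2 at 0.48 and -0.02, and Gal, the galanin precursor, at -0.46 and 0.08. Among 6 receptor, release and breakdown genes, 1 was higher and 2 lower on both turned arrays, and 2 were higher and 1 lower with array 2 as deposited. All gene rows had shares of 21.6% higher and 19.5% lower on both turned arrays, and 23.3% and 35.4% as deposited. Lnpep, the aminopeptidase that breaks down oxytocin and vasopressin, was at -0.47 and -0.46. Avpr2, the kidney vasopressin receptor, was at 0.29 and 0.08, and Avpr1b, the receptor of corticotrophs, at 0.58 and -0.32. Of 6 precursor processing genes 1 was higher and 2 lower on both turned arrays, and 0 and 3 with array 2 as deposited. The convertase Pcsk2 was at -0.46 and -0.10, the carboxypeptidase Cpe at -0.13 and -0.22, and Scg5 at -0.04 and 0.46.

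Partners of adrenomedullin and versican lay on both sides of 0 on the turned arrays. Of 8 genes of the adrenomedullin receptors and related peptides, 3 were higher and 3 lower on both turned arrays, and 1 and 1 with array 2 as deposited. For this and the next lists, the shares of all gene rows were 21.6% and 19.5%, and 23.3% and 35.4% as deposited. Calcrl, the receptor that binds adrenomedullin with RAMP proteins, was at 2.33 and -0.54, and Ramp3 at -0.98 and -0.20. Adm2, a related peptide, was at 0.12 and 0.80. Adm is also induced by low oxygen, and of 9 hypoxia-induced genes 3 were higher and 0 lower on both turned arrays. With array 2 as deposited 5 were higher and 1 lower. Egln3 was at 0.28 and 0.34, Ankrd37 at 0.25 and 0.19, and Hk2 at 0.06 and -0.46. Of 12 genes of the versican family and hyaluronan matrix, 3 were higher and 4 lower on both turned arrays. With array 2 as deposited, 1 was higher and 4 lower. Has1, a hyaluronan synthase, had a mean of -1.47 ± 0.67 (SD, n = 2) and was past 1.5-fold on both turned arrays, while its mean with array 2 as deposited was -0.47, from opposite signs. Hapln1, which links versican to hyaluronan, was at -0.78 and -0.13, and Cd44, a hyaluronan receptor, at 1.25 and 0.11.

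Brdt itself was at -0.30 and -0.43, a mean of -0.36 ± 0.10 (SD, n = 2) and an adjusted p of 0.999995 in limma, and at a mean of 0.07 with array 2 as deposited. Where the probe lies along the gene is not stated here, so this value does not check the genotype labels. In the list of anterior and intermediate lobe genes, Pomc was at -0.63 and -0.96, past 1.5-fold on both turned arrays. Its mean with array 2 as deposited was 0.17, from opposite signs. Fshb was at 0.29 and 0.52 and Tbx19 at 0.39 and 0.30. The endothelial genes Pecam1, Kdr and Emcn were at -0.07 and -0.22, -0.11 and -0.14, and 0.05 and 0.16.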

How the data were processed

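Per the labels' protocols, RNA was amplified and labelled with Cy3 or Cy5 with an Agilent two-colour kit for low RNA input. The sources used here do not give the scanning, background correction, normalization, genome build or probes behind a row. The deposited table holds 31840 rows of signed linear fold change per array, with 0 values between -1 and 1. Control features (56 rows) were left out. Each fold was turned into a log2 value that kept the fold's sign, and array 2 was turned as described above. Row names were matched to RefSeq names of GRCm38.p6 (20794 by symbol and 2749 by an older symbol). Of the listed genes, Ackr3 was found under an older symbol and Rbfox3 had no matched row. Ratios were tested against 0 in limma 3.58.1 under R 4.3.3 with an intercept-only lmFit and eBayes, which leaves 1 residual degree of freedom. P-values were adjusted by Benjamini-Hochberg over all gene rows with 0.05 as the threshold. The fit was first run on simulated data whose added changes were larger than any mean of the 10 genes. Each array was shuffled separately there and only recovery of most signs was required, so smaller changes were not checked. For 2 arrays an exact two-sided sign-flip test has a smallest p of 0.5. Alternatives were the deposited sign of array 2, centring, scaling, single arrays, protein-coding rows, robust moderation and other thresholds. The number of arrays limits the precision. The 10 genes and all lists were chosen with earlier results of these data known. Named besides the 10 are Brdt, the 3 genes per list with the largest mean in size, and any past 1.5-fold on both arrays. Listed genes that passed limma's unadjusted threshold in either reading of array 2 are named too.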

Additional observations from a re-analysis of the deposited data

How the results depend on the processing

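Centring, scaling, protein-coding rows alone and robust moderation left all 10 genes on their side of 0 and of limma's threshold. With the deposited sign of array 2, 3 genes reversed: Oxt to -0.066, Rax to -0.20 and Scn7a to 0.37. The count with the same sign on both arrays then moved to 3, against 7. These changes follow from the turned sign itself. On single arrays Scn7a ranged from -0.51 to 0.23, Slc1a3 from -0.084 to 0.47 and Gfap from -0.39 to 1.11. The count past 1.5-fold ranged from 0 (array 2, without replicate 1) to 3 (array 1, without replicate 2), and it was 1, Avp, at 1.2-fold on both arrays and 0 at 2-fold. At an unadjusted p under 0.05, limma's counts of 0 became 1 of the 10 genes and 703 of all gene rows, looser by construction. No same-sign count and no limma test could be made on a single array. No paired analysis was possible because each array is already 1 ratio of paired pools. No signal over background is given, so values of dim probes cannot be recognised.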
